A study of Mus musculus with 14 samples.

Results

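The interferon-stimulated genes described here are 37 genes chosen by symbol, most of them classical targets of type I interferon together with several GTPases induced mainly by interferon-gamma. Of the 37, 36 were listed in both deposited expression tables, which held 13406 and 14563 genes, and Ifi44 was in neither. RNA was sequenced from 14 libraries of primary mouse acute myeloid leukaemia (AML) cells of strain C57/BL6 (as labelled), taken from the spleens of terminally sick mice. The leukaemias arose in irradiated hosts that had received foetal liver cells carrying 2 retroviral vectors, so every group shares them: a Tet-Off vector with the MLL-AF9 fusion oncogene and a dsRED reporter, and another with oncogenic NRASG12D and the Tet-Off activator. In the first set, 4 libraries came from untreated cells (MLL-AF9 on) and 4 from cells kept for 4 days in doxycycline, which shuts the Tet-Off promoter and so MLL-AF9 expression. The transduced set has 3 libraries of cells with an Id2-GFP retrovirus and 3 with a control-GFP retrovirus, all sorted as GFP-positive 2 days after transduction. No group received doxycycline without the Tet-Off MLL-AF9 vector, so an effect of the drug cannot be told apart from that of MLL-AF9 loss, and no group was free of retrovirus. The titles pair each doxycycline library with an untreated one under a shared label, and give Id2-GFP and control-GFP libraries the replicate numbers 1 to 3.

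Interferons are cytokines that cells release on sensing viral or misplaced nucleic acid. Type I interferons bind the Ifnar1-Ifnar2 receptor, whose kinases Jak1 and Tyk2 activate STAT proteins, Stat2 among them. With Irf9 these form the complex ISGF3, which binds the interferon-stimulated response element (ISRE) in target promoters. Interferon-gamma acts through Ifngr1-Ifngr2, Jak1 and Jak2, and leads to binding at the gamma-activated site (GAS). Many target genes keep a low tonic level without infection, and macrophages and other mature myeloid cells are known for a strong response. Id2, the gene carried by the test retrovirus, makes a protein that binds E-protein transcription factors and keeps them off DNA.

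Depth was 17922644 to 25959766 reads on the tabled genes per library in the doxycycline set and 14051150 to 14948487 in the transduced set. The libraries fitted their labels: Mll1 was at 1998 to 6369 CPM (reads scaled to library size, the linear form of the deposited log2 values) in untreated cells and 114 to 144 CPM in doxycycline, and Id2 was at 952 to 1631 CPM in Id2-GFP and 25.8 to 51.5 CPM in control-GFP cells. Of 14 markers of myeloid leukaemia cells 13 were measured, which summed to 4414 to 7229 CPM and 3361 to 4726 CPM in the 2 sets. Spi1 was not listed under that symbol in either set. One library stood apart: in control-GFP replicate 3, 3343 genes (23.0%) lay over 2-fold from the mean of the other 2 control libraries, against 4.36% to 10.9% in the other transduced libraries and 1.45% to 2.66% in the doxycycline set. Results of the transduced set are therefore given with and without it. Nothing in the labels says that replicates came from separate animals, so p-values measure the spread between these libraries, which may be technical in part.

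Promoter windows are shown for 6 of the genes, because the letters bound by ISGF3 recur in the set while the genes carrying them moved in both directions. RefSeq promoters (250 bases before to 50 after the annotated start, GRCm38.p6) matched 28 of the 37 genes. The core of the ISRE was searched as GAAANNGAA on both strands, where neighbouring matches can overlap, and it was found in 17 of the 28 (60.7%) against 2638 of 27025 genes with a RefSeq promoter (9.76%). The GAS was searched as TTCNNNGAA, which reads alike on both strands, and it was found in 7 of the 28 (25.0%) against 9.55% of genes. A match is a run of letters and no proof of binding. The windows below run 5′ to 3′ along the strand of the gene, and the capitals mark the ISRE core on either strand.
Isg15, chr4:156200861-156200916, minus strand: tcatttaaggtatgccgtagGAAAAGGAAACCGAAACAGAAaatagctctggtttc
Ifit3, chr19:34583354-34583450, plus strand: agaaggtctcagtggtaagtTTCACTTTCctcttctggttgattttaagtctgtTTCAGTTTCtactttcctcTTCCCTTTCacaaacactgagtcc
Ifit1, chr19:34640760-34640828, plus strand: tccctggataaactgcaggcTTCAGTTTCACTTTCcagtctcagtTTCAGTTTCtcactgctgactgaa
Oas3, chr5:120777705-120777754, minus strand: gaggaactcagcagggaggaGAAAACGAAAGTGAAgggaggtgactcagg
Rsad2, chr12:26456548-26456591, minus strand: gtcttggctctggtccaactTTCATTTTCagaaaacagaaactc
Gbp3, chr3:142559980-142560029, plus strand: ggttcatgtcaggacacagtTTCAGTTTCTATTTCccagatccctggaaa

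Isg15, Ifit3 and Ifit1 each held 3 matches before the start, Oas3 and Gbp3 held 2, and Rsad2 held 1. In Isg15 they began 66 to 78 bases before the annotated start, and in Ifit3 102 to 155 bases before it. Gbp3, which fell after doxycycline, had its matches 38 and 44 bases before the start. Among the genes with a RefSeq promoter and a value in the doxycycline table, 16 had an ISRE core match and 11 had none. Of the 16, 13 rose and 1 fell (median log2 change 0.64), and of the 11, 5 rose and 2 fell (median 0.29). Of all 13406 genes with a value there, 31.3% rose and 33.8% fell. These counts describe the genes and were not tested.

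The first comparison set doxycycline against untreated cells. After 4 days, 26 of the 36 measured genes rose, 3 fell (Gbp3, Ifi47 and Cmpk2) and 7 did not pass the test (limma, adjusted p under 0.05, over all genes of the table). Of all 13406 genes 31.3% rose and 33.8% fell. The median log2 change was 0.61 over the 36 genes and −0.03 over all genes, and 10 of the 36 rose at least 2-fold. The largest rises were those of Rtp4, Ifit3, Oas3, Oasl2, Mx1 and Oas2, between 2.24-fold and 2.81-fold. For 27 of the 36 no library of one group reached the range of the other, 24 of them higher and 3 lower in doxycycline, where 28.9% and 31.1% of all genes were so separated. In bulk RNA, a change in the share of cells that express a gene and a change in RNA per cell cannot be told apart.

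**Figure D1:**
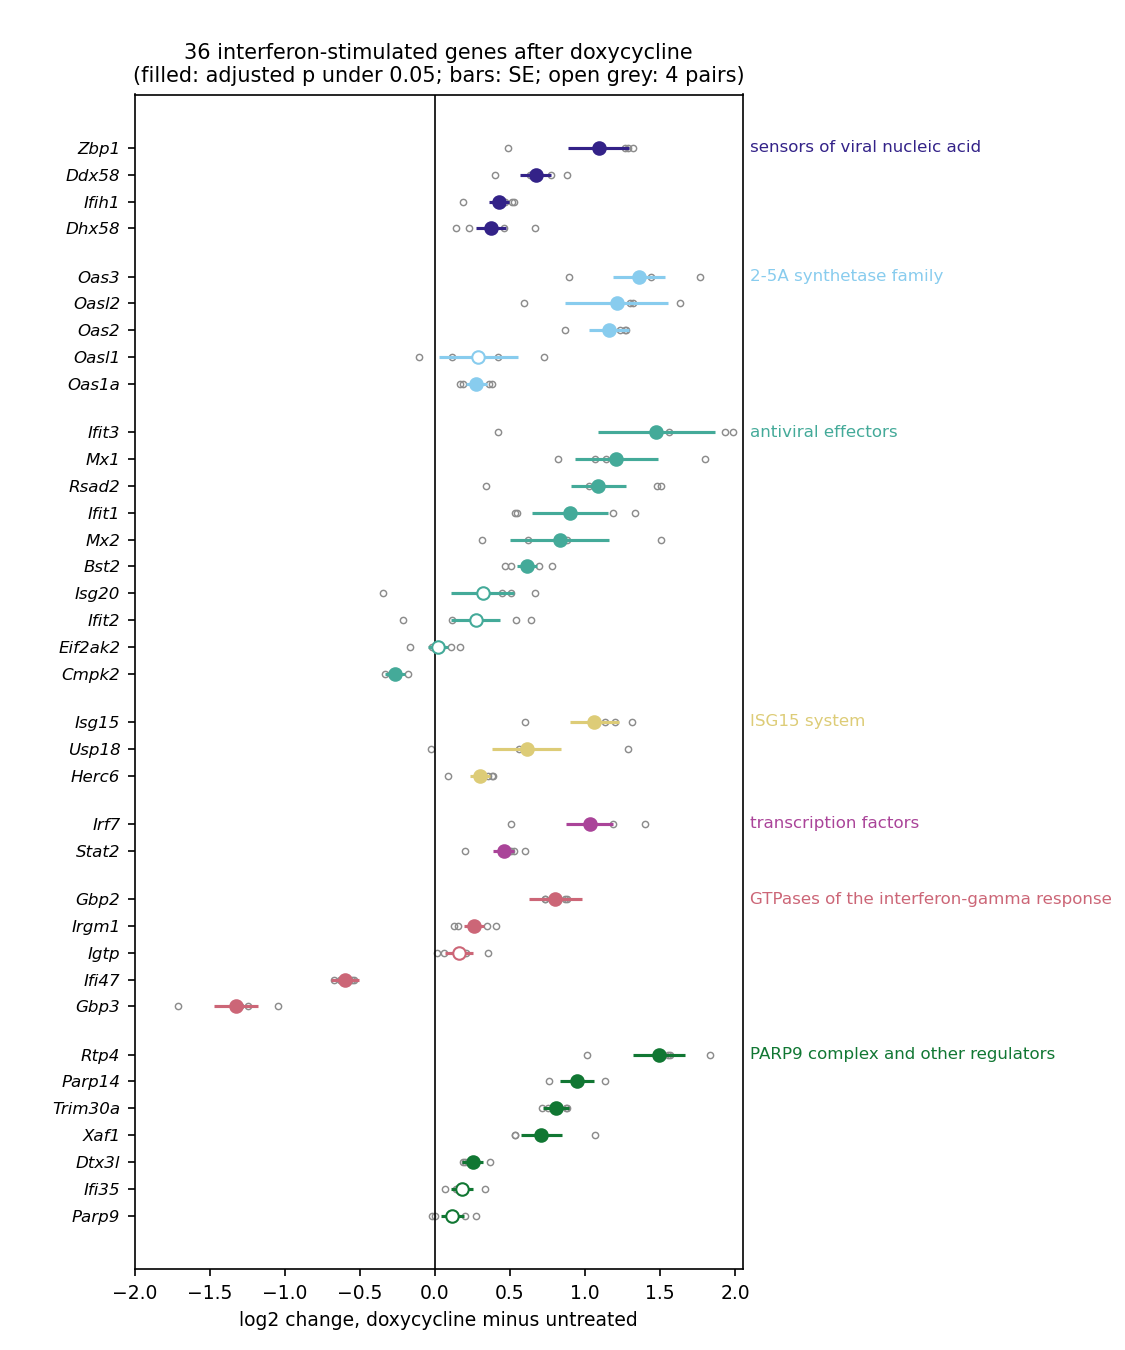
Log2 change in doxycycline against untreated cells for 36 interferon-stimulated genes, grouped by role (filled points passed at adjusted p under 0.05, bars are SE, n = 4 libraries a group, open grey circles are the 4 pair differences). Of the 36 points, 26 filled ones lie right of 0 and 3 filled ones (Gbp3, Ifi47 and Cmpk2) lie left of it.

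The 4 nucleic acid sensors all rose. Zbp1, which binds Z-form nucleic acid and can trigger cell death, was at 4.98, 7.69, 6.87 and 8.62 CPM in untreated libraries 1 to 4 and at 12.2, 19.2, 16.5 and 12.1 CPM in doxycycline (log2 change 1.09 ± 0.20 SE, adjusted p = 0.0010). Every doxycycline library lay above every untreated one. The RNA helicase Ddx58 (RIG-I) went from 36.2 ± 4.88 to 57.4 ± 5.48 CPM (SD, n = 4), its relative Ifih1 (MDA5) from 27.2 ± 0.621 to 36.6 ± 3.10 CPM, and Dhx58 (LGP2), which tunes the other helicases, changed by 0.37 ± 0.10.

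Among the 2-5A synthetases and their relatives, 4 of 5 rose, with a median of 1.16. Enzymes of this family make short adenylate chains on sensing double-stranded RNA. Oas3, on chromosome 5 from 120753098 to 120777661, was at 34.0, 43.5, 58.0 and 51.6 CPM in untreated and at 116, 118, 147 and 96.0 CPM in doxycycline libraries 1 to 4. The change was 1.36 ± 0.17 (2.57-fold, adjusted p = 8.7e-05), with no overlap of the groups. Its neighbour Oas2, from 120730333 to 120749853, was at 17.1, 20, 20.1 and 27.5 CPM and then at 41.1, 47.1, 48.7 and 50.2 CPM (1.16 ± 0.13, adjusted p = 4.6e-05). The lowest doxycycline library for Oas2 was well above the highest untreated one.
Oasl2, at chromosome 5 from 114896936 to 114912234, was at 3.77, 10.2, 8.84 and 9.60 CPM untreated and 11.7, 25.3, 21.8 and 14.5 CPM in doxycycline (1.21 ± 0.35, adjusted p = 0.0117). Its groups did not overlap, and without both libraries of pair 3 the change was 1.18 with an adjusted p of 0.0505. Oas1a rose least (0.27 ± 0.07, adjusted p = 0.0068), from 42.7 ± 3.56 to 51.6 ± 3.05 CPM. Oasl1, the lowest gene of the set, gave 21 to 41 reads a library and a change of 0.29 ± 0.26 that did not pass (adjusted p = 0.36).

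Of the 10 measured antiviral effectors, 6 rose, 1 fell and 3 did not pass. Ifit3, whose protein joins Ifit1 on foreign RNA, was at 1.40, 4.14, 2.59 and 4.44 CPM in untreated libraries 1 to 4 and at 5.54, 12.2, 9.93 and 5.94 CPM in doxycycline. Its change was 1.48 ± 0.39 (2.78-fold, adjusted p = 0.0080), and all doxycycline values lay above all untreated ones. Without both libraries of pair 3 its change was 1.32 and its adjusted p 0.0556. Ifit1, which binds RNA with an unmethylated cap, rose by 0.90 ± 0.26 (adjusted p = 0.0113), whereas Ifit2, of the same cluster on chromosome 19, had a change of 0.27 ± 0.16 (adjusted p = 0.17) and overlapping groups.
Mx1, a dynamin-like GTPase, at chromosome 16 from 97447035 to 97462907, was at 4.98, 12.8, 10.5 and 10.5 CPM untreated and at 17.4, 28.3, 21.8 and 18.6 CPM in doxycycline (1.21 ± 0.28, adjusted p = 0.0037). No untreated library reached the lowest doxycycline one. Its relative Mx2, at 0.979 to 2.92 CPM untreated and 2.78 to 4.50 CPM in doxycycline, passed narrowly (0.83 ± 0.33, adjusted p = 0.0489). The call of Mx2 was lost without doxycycline library 2, 3 or 4 (adjusted p = 0.115, 0.0995 and 0.0714) and without untreated library 1 or 3 (adjusted p = 0.0640 and 0.0802).

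Rsad2 (viperin), an enzyme that makes a chain-terminating nucleotide, went from 8.59 ± 2.12 to 18.0 ± 2.95 CPM (1.09 ± 0.18, adjusted p = 5.6e-04). Cmpk2, a mitochondrial nucleotide kinase that supplies that reaction, starts 12752 bases away on the other strand, and it fell. It was at 20.4, 22.5, 21.7 and 24.1 CPM untreated and at 18.0, 18.8, 17.7 and 19.2 CPM in doxycycline, a small drop that separated all libraries (−0.27 ± 0.07, 1.20-fold, adjusted p = 0.0056). Bst2 (tetherin), a membrane protein that holds budding virus, rose from 51.4 ± 3.53 to 78.5 ± 5.22 CPM (0.61 ± 0.07, adjusted p = 2.8e-05). Per kilobase of exon, Bst2 was the highest of the set in untreated cells (56.9 CPM per kilobase), followed by Oas1a (22.7) and Ifi47 (17.0), and Mx2 (0.596) and Oasl1 (0.489) were lowest. The kinase Eif2ak2 (PKR) had a change of 0.02 ± 0.06 and the exonuclease Isg20 of 0.32 ± 0.21, both short of the threshold. Without doxycycline library 4, at 5.17 CPM the lowest for Isg20, that gene passed with a change of 0.52 (adjusted p = 0.0149).

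**Figure D2:**
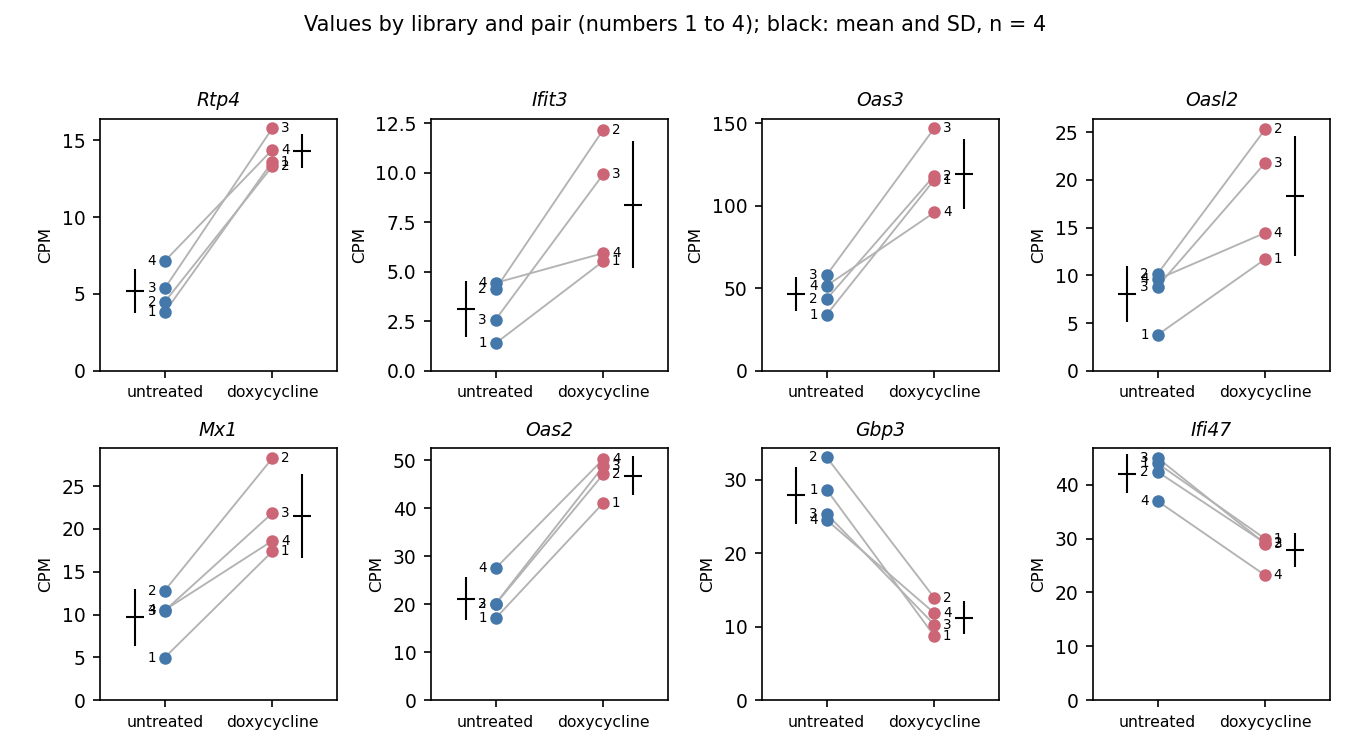
CPM of the 6 genes with the largest rise and of Gbp3 and Ifi47 in each untreated (blue) and doxycycline (red) library, with grey lines joining the libraries of a pair (numbers 1 to 4) and black marks for mean and SD (n = 4). In all 8 panels the groups do not overlap, and pair 4 has the shortest line for Ifit3, where it goes from 4.44 to 5.94 CPM.

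The ubiquitin-like modifier Isg15 rose with the 2 enzymes of its system in the set. Isg15 was at 4.11, 4.83, 5.21 and 5.09 CPM untreated and at 9.0, 11.1, 13.0 and 7.72 CPM in doxycycline (1.06 ± 0.16, adjusted p = 3.2e-04). Each doxycycline library exceeded every untreated one. The ligase Herc6 went from 21.5 ± 1.38 to 26.5 ± 1.58 CPM. Usp18, which removes Isg15 and also blocks the type I receptor, passed with a change of 0.61 ± 0.23 (adjusted p = 0.0400) but with overlapping groups. That call was lost without doxycycline library 1, 2 or 3 (adjusted p = 0.0746, 0.0742 and 0.107) and without untreated library 1 or 2 (adjusted p = 0.0657 and 0.0621).

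Both transcription factors rose. Irf7, which amplifies type I interferon production, was at 13.2, 17.5, 20.4 and 21.5 CPM untreated and at 34.9, 39.8, 41.6 and 30.6 CPM in doxycycline (1.03 ± 0.16, adjusted p = 2.9e-04). The lowest doxycycline library lay above the highest untreated one. Stat2, the ISGF3 subunit specific to type I and III interferon, went from 78.6 ± 4.45 to 108 ± 10 CPM (0.46 ± 0.07, adjusted p = 3.5e-04).

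The GTPases of the interferon-gamma response, which act on vacuoles of intracellular microbes, gave 2 of 5 that rose and 2 that fell. These shares were near those of all genes (31.3% and 33.8%), and the median was 0.16 (−0.08 on library totals). Gbp3, on chromosome 3 from 142560026 to 142573209, was at 28.7, 33.1, 25.4 and 24.5 CPM in untreated and at 8.75, 13.9, 10.3 and 11.9 CPM in doxycycline libraries 1 to 4. It fell by 1.33 ± 0.15 on the log2 scale (2.51-fold, adjusted p = 3.9e-05), and no library crossed. Its neighbour Gbp2, which starts 60576 bases further on the same strand, rose from 5.78 ± 1.25 to 10.1 ± 1.94 CPM (0.80 ± 0.18, adjusted p = 0.0030).
Ifi47 (IRG-47), on chromosome 11 from 49076587 to 49096974, was at 44, 42.4, 45.0 and 37.0 CPM and then at 30.0, 29.2, 29.1 and 23.2 CPM. It fell by 0.60 ± 0.09 (1.51-fold, adjusted p = 3.8e-04) with no overlap. Irgm1, a regulator of the other immunity-related GTPases, rose by 0.26 ± 0.07 (adjusted p = 0.0077), and Igtp (Irgm3) had a change of 0.16 ± 0.09 that did not pass.

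In the group of Parp9, Dtx3l and other regulators, 5 of 7 rose. Rtp4, which has been described as a brake on type I interferon signalling, had the largest rise of the whole set. At chromosome 16 from 23520291 to 23614222, it was at 3.81, 4.48, 5.36 and 7.14 CPM untreated and at 13.6, 13.3, 15.8 and 14.4 CPM in doxycycline (1.49 ± 0.17, 2.81-fold, adjusted p = 5.4e-05). The doxycycline values were close to each other and far above all untreated ones. Parp14, an ADP-ribosyltransferase, went from 61.8 ± 10.3 to 118 ± 8.59 CPM (0.95 ± 0.11), the antiviral E3 ligase Trim30a from 54.2 ± 5.50 to 94.6 ± 8.0 CPM (0.81 ± 0.08), and the pro-apoptotic Xaf1 from 13.1 ± 2.45 to 21.2 ± 1.94 CPM (0.71 ± 0.14).
Dtx3l, an E3 ligase that binds Parp9, rose by 0.25 ± 0.07 (adjusted p = 0.0102), and Parp9 itself had a change of 0.11 ± 0.08 (adjusted p = 0.22). These 2 genes overlap head to head on chromosome 16, with starts 681 bases apart, and no strand was stated, so part of their reads cannot be assigned. Ifi35, a partner of Nmi, had a change of 0.18 ± 0.07 (adjusted p = 0.0509). It passed with the pair as a block (adjusted p = 0.0267), and also without doxycycline library 4, untreated library 1 or untreated library 3 (adjusted p = 0.0324, 0.0338 and 0.0408).

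The pairs agreed in direction for most genes and differed in size. In pairs 1, 2 and 3, 32 of 36 genes were higher in doxycycline, with median differences of 0.68, 0.68 and 0.54, and in pair 4 28 were higher, with a median of 0.33. Of all genes 49.1%, 49.6%, 47.1% and 47.3% were higher in pairs 1, 2, 3 and 4. Over all pairs, 27 genes were higher in 4 of 4 and 3 were lower in 4 of 4, but the share of all genes that did so was not counted. The label of pair 4 begins with TRIMA1 and those of the other pairs with TRIMA2, and a single such pair allows no test of that difference. Untreated library 1 was the lowest of its group, with a median of −0.30 against its mates and 4 genes over 2-fold lower.

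The authors' scale bears on these counts. Their scaling factors were 1.068 to 1.101 in untreated and 0.891 to 0.951 in doxycycline libraries, so scaling by plain library totals moved the median of all genes from −0.03 to −0.27. On that scale 18 of the 36 genes rose and 4 fell, where 20.2% of all genes rose and 51.6% fell, and the median of the 36 was 0.37. Gbp3, Ifi47 and Cmpk2 fell on both scales. Eif2ak2 turned to −0.22 (adjusted p = 0.0172), and Ifih1, Dhx58, Oas1a, Mx2, Usp18, Herc6, Irgm1 and Dtx3l no longer passed.

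No gene for an interferon was listed: 0 of 20 ligands, Ifnb1 and Ifng among them, were in either table, which hold only genes above 1 CPM in at least 2 libraries. Of 6 receptor genes 5 rose after doxycycline. Ifnar1 went from 101 ± 4.37 to 180 ± 5.62 CPM (0.83 ± 0.04), Ifnar2 from 107 ± 11.5 to 140 ± 5.58 CPM (0.40 ± 0.07), and Ifngr2 from 47.5 ± 2.63 to 114 ± 3.43 CPM (1.26 ± 0.05, adjusted p = 2.4e-07). Il10rb, shared by the receptors of interferon-lambda and interleukin-10, rose by 0.72 ± 0.09, and Ifnlr1, the other lambda chain, by 2.49 ± 0.55 from a low level of 1.61 ± 1.04 CPM. Ifngr1 had a change of 0.08 ± 0.06 (adjusted p = 0.23), which became −0.16 (adjusted p = 0.0334) on library totals, where Ifnar2 no longer passed (0.16, adjusted p = 0.115). Over all 130 measured pathway genes outside the set, 79 rose and 18 fell on the authors' scale, and 61 rose and 35 fell on library totals.

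Most genes that carry the signal from receptor to nucleus rose as well. Of 9 JAK-STAT and ISGF3 genes 8 rose, with a median of 0.44. On library totals 6 rose and 1 fell, with a median of 0.20, and Irf2 and Irf8 no longer passed. Irf9 went from 50.1 ± 5.12 to 69.5 ± 1.69 CPM (0.48 ± 0.07), and Irf1, a factor induced by interferon-gamma, from 36.9 ± 3.71 to 52.0 ± 2.33 CPM (0.50 ± 0.07). The kinases Tyk2, Jak2 and Jak1 changed by 0.46 ± 0.04, 0.40 ± 0.05 and 0.50 ± 0.06. Stat3, which also serves interleukin-6 and interleukin-10, did not pass (0.05 ± 0.06) and was at −0.19 on library totals (adjusted p = 0.0440).

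Genes of the sensing pathway that leads to interferon rose in 14 of 20 cases and fell in 1, with a median of 0.43. On library totals 12 rose and 5 fell, with a median of 0.19. Tlr7, an endosomal receptor for single-stranded RNA, went from 19.6 ± 4.85 to 115 ± 22.5 CPM (2.57 ± 0.18), and its transport protein Unc93b1 from 265 ± 18.8 to 605 ± 59.2 CPM (1.18 ± 0.08). Ikbke, a kinase of Irf3 and Irf7, rose by 1.57 ± 0.10, and Trim25, which activates Ddx58, by 0.81 ± 0.06. Mb21d1 (cGAS), the sensor of cytosolic DNA, fell by 0.72 ± 0.06 (adjusted p = 4.7e-06). Of 14 genes that restrain the signal 6 rose and 5 fell, shares near those of all genes (31.3% and 33.8%). Samhd1, which depletes nucleotides, and the phosphatase Ptpn1 rose by 1.45 ± 0.09 and 0.97 ± 0.08, whereas Rnaseh2b, a subunit of the enzyme that removes ribonucleotides from DNA, and the phosphatase Ptpn11 fell by 0.65 ± 0.05 and 0.47 ± 0.05. The median of these 14 genes changed sign with the scale, from 0.12 to −0.12 on library totals.

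A wider list of 81 other interferon-induced genes gave 46 that rose and 12 that fell, with a median of 0.42. On library totals 34 rose and 21 fell, with a median of 0.18. By smallest p, its leading genes were Tdrd7, Ifitm3, Ube2l6 and Znfx1. Ifitm3, which blocks viral entry at endosomes, went from 31.8 ± 8.12 to 238 ± 13.4 CPM (2.94 ± 0.15), more than any of the 36 genes. Ube2l6, the conjugating enzyme for Isg15, went from 5.53 ± 0.642 to 19.0 ± 0.984 CPM (1.78 ± 0.10), and Tdrd7 and the RNA helicase-like Znfx1 rose by 1.15 ± 0.05 and 1.17 ± 0.07.

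Markers of myeloid maturation moved with doxycycline as well. Of 17 measured markers of monocytes and macrophages 16 rose and none fell (median 2.13), and their summed level was 3479 to 6351 CPM in untreated and 28217 to 40164 CPM in doxycycline libraries. All 9 neutrophil markers rose (median 3.15), with sums of 542 to 1990 and 4414 to 9933 CPM. Of 10 measured markers of plasmacytoid dendritic cells, which make much type I interferon, 2 rose and 5 fell, with sums of 618 to 711 and 746 to 920 CPM. The defining marker Siglech was at 0.688 to 2.58 CPM untreated and 0.686 to 2.14 CPM in doxycycline. Of T and NK cell markers 2 of 14 were measured, with sums of 1.26 to 2.52 and 0.303 to 1.19 CPM. The part of cell maturation or of other cells in the changes of the interferon-stimulated genes was not tested.

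The other comparison set Id2-GFP against control-GFP cells, in which MLL-AF9 stayed on. No gene of the 36 passed (limma, smallest adjusted p = 0.998), and 0 of 36 had an unadjusted p under 0.05. Of all 14563 genes 2 passed (0.0137%), of which 1 was Id2 (5.18 ± 0.31, adjusted p = 0.0026). With the replicate number as a block 35 genes passed (0.24%), again none of the 36, with a smallest adjusted p of 0.46 and 1 gene, Ifi47, at an unadjusted p under 0.05. The median change was −0.01 (−0.03 over all genes), with 17 of 36 genes above 0. The groups overlapped for all 36, but the share of all genes that overlapped was not counted. Control-GFP replicate 3, over 2-fold above the other control libraries for 24 of the 36, widened the control range. All 36 confidence intervals (95%) included 0, and the median SE was 0.42 without and 0.24 with the block, against 0.13 in the doxycycline set. For 22 of the 26 genes that rose after doxycycline, the change seen there lay inside the unblocked interval of the Id2 comparison, but for 6 of 26 inside the blocked one. The interval of Isg15 was −2.04 to 1.27 without and −1.28 to 0.51 with the block, and that of Oas2 −1.10 to 1.18 and −0.56 to 0.63. The doxycycline changes of both lay inside the interval without the block and above the one with it. These counts and intervals include control-GFP replicate 3 and leave out the SE of the doxycycline changes. Without that library the unblocked changes with Id2 were 0.49 ± 0.35 for Isg15 and 0.43 ± 0.45 for Oas2.

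**Figure D3:**
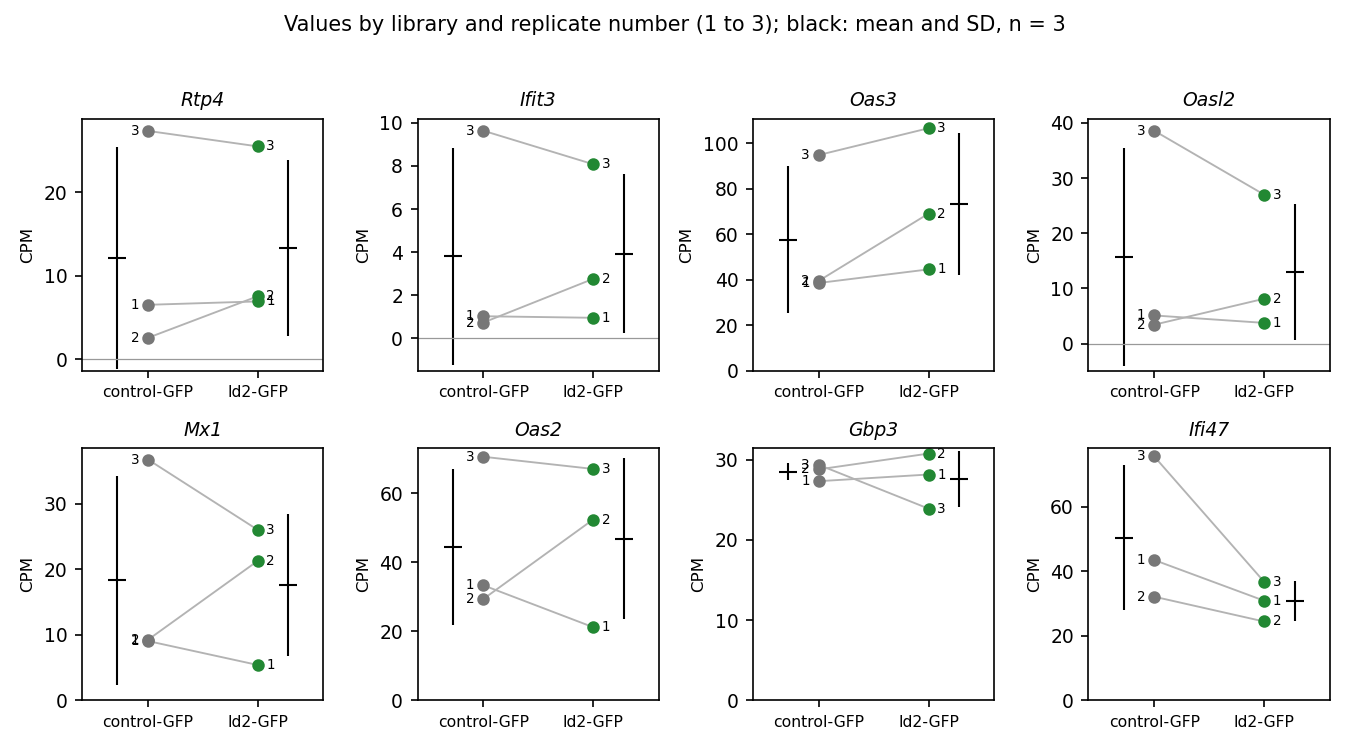
CPM of the same 8 genes in each control-GFP (grey) and Id2-GFP (green) library, with lines joining libraries of the same replicate number (1 to 3) and black marks for mean and SD (n = 3, some SD bars reach below 0). Both libraries of replicate 3 are the highest in 6 of the panels, Gbp3 is level, and Ifi47 is lower in Id2-GFP in each replicate.

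Differences by replicate number did not point one way. In replicate 1, 6 of 36 genes were higher in Id2-GFP (median −0.20), in replicate 2, 33 were (median 0.44), and in replicate 3, 11 were (median −0.32). Of all genes 52.3%, 49.3% and 45.5% were higher in replicates 1, 2 and 3. Oas3, Parp9 and Dtx3l were higher in 3 of 3 and Rsad2 and Ifi47 lower in 3 of 3. The share of all genes with such agreement was not counted, so it is not read as a result about these genes. Oas3 was at 38.6, 39.6 and 94.8 CPM in control-GFP libraries 1 to 3 and at 44.6, 69.1 and 107 CPM in Id2-GFP (0.39 ± 0.43, interval −0.61 to 1.40). Ifi47 was at 43.5, 32.1 and 75.6 CPM and then at 30.9, 24.4 and 36.8 CPM (−0.64 ± 0.33, adjusted p = 0.998). With the block the interval of Ifi47 was −1.09 to −0.19, which leaves out 0, but its adjusted p was 0.46. Ifi47 also fell after doxycycline, in cells where Id2 rose from 21.4 to 33.5 CPM up to 80.4 to 92.6 CPM. Rsad2, also lower in 3 of 3 with Id2, rose after doxycycline. Gbp3 and Cmpk2 fell after doxycycline but were higher in Id2-GFP in 2 of 3 replicates. A part of Id2 in these changes was not tested.

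Replicate 3 carried the highest level of the set in both arms. In control-GFP replicate 3, 35 of 36 genes were above the mean of replicates 1 and 2, 24 of them over 2-fold, with a median excess of 1.25 on the log2 scale. Of all genes 10.9% were over 2-fold higher there. Ifit3 was at 1.02, 0.726 and 9.64 CPM in control-GFP libraries 1, 2 and 3, Oasl2 at 5.10, 3.42 and 38.6 CPM, Usp18 at 15.9, 9.71 and 76.4 CPM, and Isg15 at 4.24, 3.91 and 25.0 CPM. In each of these genes the third library stood 6.14-fold to 11.2-fold above the mean log2 level of the other 2. Eif2ak2 was the exception, at 84.1, 79.3 and 61.9 CPM, and Gbp3 differed little (27.3, 28.8 and 29.4 CPM).

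Id2-GFP replicate 3 gave a smaller excess of the same kind. There 35 of 36 genes were above the mean of Id2-GFP replicates 1 and 2, 11 over 2-fold, with a median of 0.70, against 3.10% of all genes over 2-fold higher. Ifit3 was at 0.946, 2.75 and 8.08 CPM in Id2-GFP libraries 1, 2 and 3, and Isg15 at 3.69, 6.52 and 7.73 CPM. Receptor and JAK-STAT genes had medians of −0.09 (5 genes) and 0.10 (9 genes) in control-GFP replicate 3, against 0.06 over all genes. In Id2-GFP replicate 3 their medians were 0.08 and 0.34, against 0.01 over all genes, and 7 of the 9 JAK-STAT genes were higher. Among the other interferon-induced genes 30 of 85 were over 2-fold higher in control-GFP replicate 3.

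**Figure D4:**
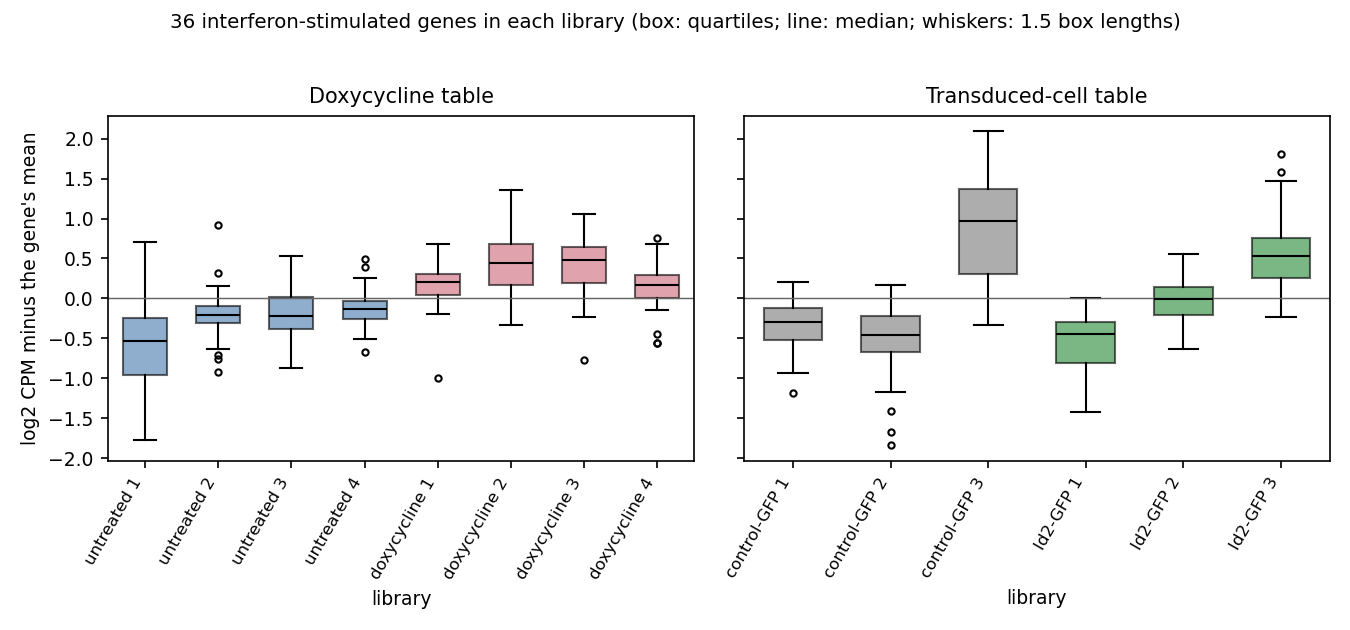
Distribution over 36 interferon-stimulated genes of log2 CPM minus the gene's mean over its table, per library, with the doxycycline set on the left and the transduced set on the right. Medians are −0.53 to −0.14 in untreated and 0.17 to 0.48 in doxycycline libraries, and in the transduced set the 2 libraries of replicate 3 are highest, at 0.97 (control-GFP) and 0.54 (Id2-GFP).

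Other values moved with control-GFP replicate 3. Its summed level of 3 measured erythroid and platelet markers was 104 CPM against 66.0 and 37.2 CPM in control-GFP replicates 1 and 2. In Id2-GFP replicate 3 that sum was 28.7 CPM, between the 40.4 and 19.8 CPM of Id2-GFP replicates 1 and 2. The Mll1 level of control-GFP replicate 3 was 1234 CPM against 2529 and 6369 CPM in control-GFP replicates 1 and 2. Its level of Mllt3 (AF9), at 394 CPM, lay between theirs (330 and 790 CPM). The scaling factor of control-GFP replicate 3 was 0.913 against 1.005 to 1.026 in the other 5. Its summed level of 9 plasmacytoid dendritic cell markers was 687 CPM against 791 and 1011 CPM. The 14 measured monocyte and macrophage markers summed to 1861 CPM there, against 2577 and 2188 CPM in control-GFP replicates 1 and 2. In Id2-GFP replicate 3 they summed to 1707 CPM, against 1866 and 2559 CPM in Id2-GFP replicates 1 and 2. Sums of the 13 myeloid leukaemia markers were also lowest in replicate 3 of each arm (3361 and 3598 CPM). The part of these in the high interferon-stimulated genes was not tested.

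Across the 36 genes, those with larger rises after doxycycline also had the larger excess in replicate 3. Pearson's r between the doxycycline change and the excess was 0.58 (Spearman 0.61) for control-GFP replicate 3 and 0.72 (Spearman 0.72) for Id2-GFP replicate 3, and 0.80 (Spearman 0.75) between the 2 excesses. The 2 tables share no libraries, but genes are not independent replicates and each excess rests on 1 library, so these values only describe the set. Parp14, Gbp2 and Stat2 rose after doxycycline with an excess of 0.48, 0.25 and 0.11 in control-GFP replicate 3. Ifi35 and Igtp, which did not pass after doxycycline, had an excess of 1.56 and 1.49 there.

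**Figure D5:**
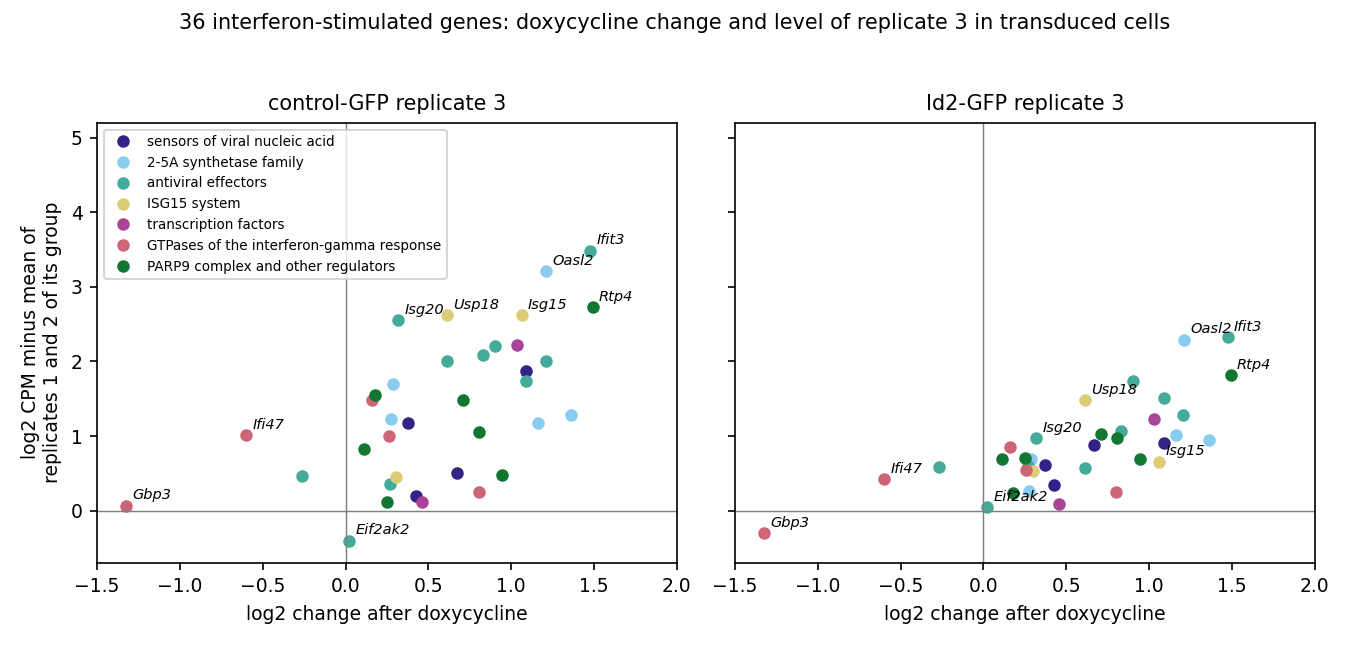
Each point is 1 of 36 interferon-stimulated genes, coloured by role, with its log2 change after doxycycline on the horizontal axis and, on the vertical axis, the log2 excess of control-GFP replicate 3 (left) or Id2-GFP replicate 3 (right) over replicates 1 and 2 of the same group. Ifit3, Oasl2 and Rtp4 lie at the upper right of both panels, and Gbp3 at the lower left.

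Leaving out control-GFP replicate 3 moved the Id2 comparison upward without making calls. The median of the 36 genes went from −0.01 to 0.35, and 33 of 36 lay above 0, but 0 passed (smallest adjusted p = 0.993, with 1 gene at an unadjusted p under 0.05). In that comparison Id2-GFP replicate 3, with its own high values, had no partner. Without both libraries of replicate 3 the median was 0.11, and again none passed. With those 2 pairs and the replicate block, which leaves 1 residual degree of freedom, 468 of all genes passed (3.21%), and of the 36 Oas3 (0.51 ± 0.15, adjusted p = 0.0382) and Rtp4 (0.82 ± 0.24, adjusted p = 0.0235) rose. Rtp4 was at 6.54 and 2.59 CPM in control-GFP libraries 1 and 2 and at 6.95 and 7.56 CPM in Id2-GFP, so its difference comes mainly from replicate 2 (1.54, against 0.09 in replicate 1). The 2 calls were not seen with replicate 3 in the fit.

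None of the 133 measured pathway genes passed with Id2 in the unblocked or the blocked fit. Ifnar1 was at 95.9 to 123 CPM in control-GFP and 131 to 148 CPM in Id2-GFP (0.36 ± 0.17), and Ifngr2 at 50.5 to 59.1 and 68.6 to 81.1 CPM (0.51 ± 0.16). Both had an adjusted p of 0.998. Irf9 had a change of 0.11 ± 0.30 and Irf1 of −0.07 ± 0.31. Ifnar2 and Ifngr1 were at −0.02 ± 0.20 and 0.04 ± 0.16. In pairs 1 and 2 with the block, 7 of the 133 rose and 3 fell. In that fit, with 1 residual degree of freedom, 253 of all 14563 genes rose and 215 fell (3.21% together).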

How the data were processed

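The authors deposited 2 tables of log2 values, per the file headers and the values. Each is a log2 CPM of reads plus 0.5, over a scaled library size, since 100% of values came out as whole reads within 0.01 read. CPM in the text are those reads over the scaled library size. Per the submitters' processing notes, mm10, limma, TopHat2, HTSeq and CASAVA 1.8.2 were used, in roles not given in the sources used here. The tables were normalized apart, so tests stay within one.

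Groups were compared with limma 3.58.1 in R 4.3.3 on the deposited log2 values (eBayes with a variance trend, two-sided, Benjamini-Hochberg adjustment over all genes of the table, threshold 0.05), without a block. The code was tested on simulated data. Changes are log2 ± SE, and the offset understates those of low genes. Alternatives were other scalings, offsets and floors, the replicate block and left-out libraries.

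The shared numbers pair the samples: deviations from group means correlated at 0.454 to 0.552 within doxycycline pairs and 0.472 to 0.581 within Id2 pairs, against −0.545 to −0.013 between other libraries.

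Locations and exon lengths are from GENCODE M21 (GRCm38), promoters from RefSeq. Libraries within a group varied beyond sampling noise. Python 3.11.15 and matplotlib 3.10.9 drew the plots.

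Genes, lists and tests were chosen with earlier results of these data known. Every gene of the set is named. Values in every library are given for the 6 largest rises, the falls and a few others chosen after their values were seen. Pathway genes are up to 4 per list by smallest p, plus core receptor and signal genes, of which some are not reported here.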

Additional observations from a re-analysis of the deposited data

Results flagged for a closer look

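In 4 of 72 groups of 4 libraries, 1 library lay apart from the other 3, by a gap that chance gives in about 1 in 20 groups (3.6 of 72). Ddx58 was at 65.6 CPM in doxycycline library 3, against 54.1 to 55.4 CPM in the others. Oasl2 was at 3.77 CPM in untreated library 1, against 8.84 to 10.2 CPM. Ifi47 was at 23.2 CPM in doxycycline library 4, against 29.1 to 30.0 CPM, and Parp14 at 105 CPM in doxycycline library 1, against 120 to 123 CPM. The transduced groups of 3 were not examined in this way.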

How the results depend on the processing

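After doxycycline, 26 genes rose and 3 fell. With 1 library left out 24 to 27 rose and 3 fell, with 1 pair left out 21 to 25 rose and 3 fell, and under the 10 other settings 18 to 27 rose and 3 to 4 fell. With the replicate block 27 rose and 3 fell, and the block changed no other call among the 36 than that of Ifi35. On library totals the median of the set was 0.37 against 0.61, Eif2ak2 turned from 0.02 to −0.22, and 35 pathway genes fell against 18 of 130. By gene and setting, 740 of 784 doxycycline results kept their side of the threshold, 33 (10 genes) lost the call and 10 (Ifi35 and Isg20) gained it. The sign differed in 9 (4 genes), of which 1, Eif2ak2 on library totals, passed. Beside those in the report, Irgm1 lost it without pair 1 or 3 (adjusted p = 0.0516 and 0.0520) and Dtx3l without pair 4 (0.0583). Mx2 also lost it without pair 2, 3 or 4 (0.0660, 0.145 and 0.0602), without the variance trend (0.0638) and with quantile normalization (0.0762). Usp18 also lost it without pair 1, 2 or 3 (0.113, 0.106 and 0.0687), without the variance trend (0.0607) and with a robust variance (0.0509). With Id2, the settings gave 0 calls in the set and 0 pathway genes, except pairs 1 and 2 with the replicate block. There 2 genes of the set rose, and of the pathway genes 7 rose and 3 fell, where 3.21% of all genes passed. The Id2 median ranged from −0.31 to 0.35 with 1 library left out. Depth limits Ifit3 and Oasl1, with as few as 10 and 11 reads in a transduced library. The cause of these shifts was not tested, beyond fewer libraries where some were left out.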

Other observations

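Within the wider list of other interferon-induced genes, 3 families were looked at after their values were seen, and no test of a family was made. Of 6 schlafen genes, which restrict growth and viral translation in myeloid and lymphoid cells, 5 rose after doxycycline: Slfn1 went from 1.69 to 11.0 CPM untreated up to 50.1 to 92.5 CPM (log2 change 4.36 ± 0.55), Slfn2 changed by 2.57 ± 0.18, Slfn5 by 2.28 ± 0.23, Slfn4 by 1.90 ± 0.19 and Slfn8 by 1.09 ± 0.13. Slfn9 did not pass (0.10 ± 0.18). All 4 measured Ifitm genes rose, with Ifitm6 at 2.95 to 12.0 CPM untreated and 78.9 to 112 CPM in doxycycline (4.09 ± 0.39), Ifitm1 at 2.19 ± 0.33 and Ifitm2 at 0.59 ± 0.07. Monocyte, macrophage and neutrophil markers rose in the same libraries, and their part in this was not tested.

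Of 11 measured genes of class I antigen presentation, 4 rose (B2m 0.72 ± 0.09, H2-D1 0.66 ± 0.07, Psme2 0.41 ± 0.05 and Tapbp 0.39 ± 0.06), 3 fell and 4 did not pass, where 31.3% of all genes rose and 33.8% fell. Tap2, a chain of the peptide transporter, went from 281 to 371 CPM in untreated down to 139 to 180 CPM in doxycycline (−1.08 ± 0.10, adjusted p = 1.4e-05), the immunoproteasome subunit Psmb8 changed by −0.62 ± 0.10 and Tap1 by −0.41 ± 0.13. On library totals Tapbp no longer passed (adjusted p = 0.0689).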
